A study of Mus musculus with 32 samples.

Results

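The subject is the common gamma chain cytokine receptor family: 7 receptor genes, chosen by symbol (Il2ra, Il2rb, Il2rg, Il7r, Il15ra, Il4ra and Il21r) among 16741 genes measured in 31 bulk RNA-seq libraries. All 7 symbols were found, every one was above 0 in every library, and all 7 passed the filter on low values. The libraries are of T cells sorted from spleen and lymph nodes in a study of acute graft-versus-host disease across a major mismatch. The cells came from C57Bl6 donors and the series' design text names Balb/c mice as the mismatched recipients; the strain of the syngeneic recipients is not given in the labels used here. Regulatory T cells (Treg), CD4+ T cells and CD8+ T cells were taken before transplantation (day 0, 2 libraries each), and CD4+ and CD8+ T cells were taken afterwards from allogeneic recipients with untreated disease (4 libraries each), from allogeneic recipients that had also been given Treg (Treg-treated, 4 each) and from untreated syngeneic controls (3 each). Treg were taken back from Treg-treated recipients (3 libraries). The sample titles give day 6 for the cells after transplantation and the series' design text gives day 8. Titles begin with JL019 or JL027, and the allogeneic and Treg-treated groups hold 2 libraries of each. Whether a library is 1 mouse or a pool is not stated in the labels used here, so the spread between libraries may be partly technical.

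Receptors of this family pair a shared signalling subunit, the common gamma chain encoded by Il2rg, with a chain that recognises a particular cytokine. Interleukin 2 binds a complex of the alpha chain CD25 (Il2ra), the beta chain CD122 (Il2rb) and the gamma chain, and interleukin 15 uses the same beta and gamma chains with its own alpha chain, which often presents the cytokine from a neighbouring cell. Interleukins 7, 4 and 21 signal through their own chains (CD127 from Il7r, Il4ra, Il21r) with the gamma chain. The receptors act through the kinases JAK1 and JAK3 and through STAT factors. CD25 is a hallmark of Treg, which make little interleukin 2 and depend on that of other cells; CD127 is typical of resting and memory conventional T cells and low on resting Treg.

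Some of the 7 genes are neighbours. On GRCm38, Il2ra (ENSMUSG00000026770) spans chr2:11642792-11693194 and Il15ra lies next to it at chr2:11705172-11733985, with 11977 bases between them. Il4ra (chr7:125552271-125579474) and Il21r (chr7:125603252-125634397) are also adjacent, 23777 bases apart. Il7r (chr15:9506159-9529941) and Il2rb (chr15:78479256-78511621) lie far apart on 1 chromosome, and Il2rg is at chrX:101264385-101268255. Il2ra overlaps the annotated long non-coding RNA Gm39760 at its end, so reads from that stretch cannot be told apart without strand.

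RefSeq promoter windows on GRCm38.p6, from 250 bases before to 50 after a start site, were matched for 6 of the 7 genes (7 windows, 2 of them of Il15ra). They were searched on both strands for a STAT motif (TTCNNNGAA), a FOXO motif (TGTTTAC), a RUNX motif (TGTGGTT) and the NF-kappaB motif by its name, because STAT factors lie downstream of these receptors and the other factors are known regulators of cytokine receptor genes in T cells. The stretches shown belong to Il2ra, the gene with the widest spread between groups, and to Il7r, which was highest in Treg after transplantation, with the match in capitals and 25 bases on either side; they are read on the gene's strand.
Il2ra, chr2:11642566-11642625, plus strand, NF-kappaB match 201 bases before the start site of its window (chr2:11642792): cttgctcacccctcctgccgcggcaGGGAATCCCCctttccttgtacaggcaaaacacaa
Il7r, chr15:9529985-9530043, minus strand, STAT match 142 bases before the start site of its window (chr15:9529876, 65 bases inside the gene as annotated): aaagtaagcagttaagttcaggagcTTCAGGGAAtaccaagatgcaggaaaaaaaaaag
Such letters are common: of 32851 windows of the same length, 8.30% held the STAT motif, 3.65% the FOXO motif, 5.27% the RUNX motif and 8.46% the NF-kappaB motif. Il7r also had a RUNX match and Il4ra an NF-kappaB match just after the start site. Il21r had a FOXO match 38 bases before the start site of its window, which lies 177 bases inside the gene as annotated. A match describes the sequence and shows neither binding nor a cause of the values below.

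Values are normalised counts, whose sum per library ran from 20540551 to 39928133. The label checks held for the CD4 and CD8 sorts: Cd8a was at 14160.0 to 61114 in CD8 libraries and at most 114 in all CD4 and Treg libraries but 1. That exception, the CD4 syngeneic library JL019-2, stands apart: its Cd4 was 1659 against 14577 and 16526 in the other CD4 syngeneic libraries, its Cd8a was 1956, and the myeloid gene Lyz2 was at 825480, against at most 21602 elsewhere. All 8 myeloid markers together summed to 920836 there, against 20320 and 27107 in the other CD4 syngeneic libraries, and all 6 erythroid markers to 463705. Foxp3, the defining Treg factor, was lower in day 0 Treg (198 and 442) than in day 0 CD4 cells (1145 and 978), whereas Ikzf2, another gene typical of Treg, was at 19287 and 14182 against 1619 and 1769.9. Every comparison uses limma across all genes with the spread shared over the 10 groups, so that library also enters the errors of comparisons it is not part of. Counts of called receptor genes that change without it are given with the comparisons. Changes are differences of group means of log2(value + 1), given ± standard error (SE), and a gene is called at an adjusted p below 0.05.

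**Figure D1:**
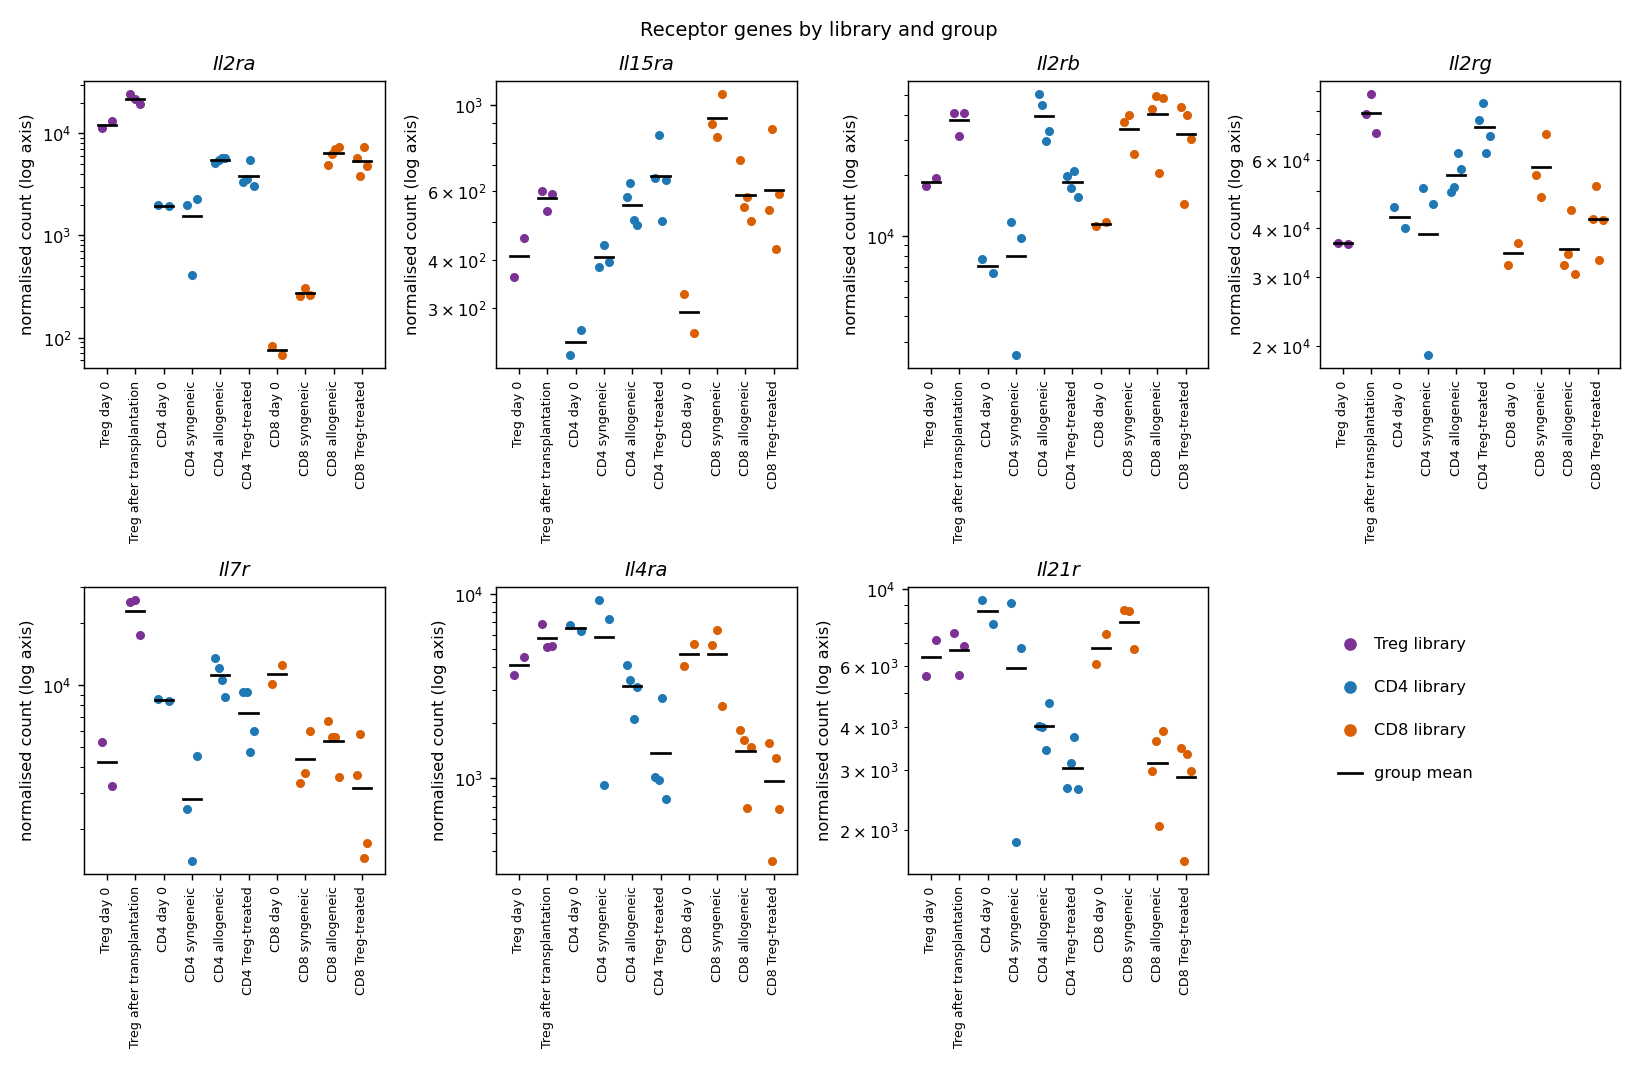
Normalised counts of the 7 receptor genes (vertical log axes) in each of the 31 libraries (points) by group (horizontal axes), with black lines for group means. Il2ra spans from 75.0 in CD8 day 0 cells to 21765 in Treg after transplantation, whereas the Il2rg means lie between 34510 and 79073.

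Of the 7 genes, Il2ra was the most spread between groups, with a 290-fold distance from the highest to the lowest group mean. The other genes spanned 8.19-fold (Il7r), 6.76-fold (Il4ra), 5.65-fold (Il2rb), 3.79-fold (Il15ra), 3.03-fold (Il21r) and 2.29-fold (Il2rg). When the 10 groups were ordered by their mean, 5 of the 9 pairs of neighbouring groups did not overlap for Il2ra, 2 for Il7r and for Il15ra, 1 for Il2rb, Il2rg and Il4ra and 0 for Il21r. Leaving out CD4 syngeneic JL019-2 changed these to 6 for Il2ra, 2 for Il2rb and Il4ra and 1 for Il21r, and the span to 7.30-fold for Il7r and 8.58-fold for Il4ra, whose highest group was then CD4 syngeneic (8314). The Il2ra order ran from Treg after transplantation and Treg at day 0 through the 4 overlapping groups of CD8 allogeneic, CD4 allogeneic, CD8 Treg-treated and CD4 Treg-treated cells, then CD4 day 0 and CD4 syngeneic cells, which overlapped, to CD8 syngeneic and CD8 day 0 cells. The CD4 syngeneic mean of Il2ra without JL019-2 was 2145, above CD4 day 0 cells with no overlap. Group values here are means ± SD over the 2 to 4 libraries of a group. Il7r was also highest in Treg after transplantation (23023 ± 4765), followed by CD8 day 0 and CD4 allogeneic cells, which overlapped (11296 ± 1680.1 and 11226 ± 2059), and lowest in CD4 syngeneic cells (2810.1 ± 1592). Without CD4 syngeneic JL019-2 that mean was 3514, and CD8 Treg-treated cells were lowest (3155 ± 2027). Il2rb was highest in a run of 7 groups that overlapped with their neighbours, from CD8 allogeneic (40396 ± 13458) to CD4 Treg-treated cells (18478 ± 2437), and lower in CD8 day 0, CD4 syngeneic and CD4 day 0 cells. Il15ra was highest in CD8 syngeneic cells (929 ± 125) and lowest in CD8 and CD4 cells at day 0 (293 ± 48.2 and 245 ± 25.2). Il4ra was lowest in CD8 allogeneic, CD4 Treg-treated and CD8 Treg-treated cells (1396 ± 493, 1371 ± 913 and 969 ± 548), and Il21r was lowest in the same 3 groups, at 3130.2 ± 812, 3042 ± 519.6 and 2847 ± 836. The order within a gene is given because normalised counts of different genes also depend on transcript length.

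Before transplantation the 3 sorted populations differed mainly in the interleukin 2 alpha chain. Il2ra was at 11229 and 13064 in the Treg libraries, at 1981 and 1923 in the CD4 libraries and at 82.3 and 67.7 in the CD8 libraries, with no overlap. Treg exceeded CD4 cells by 2.63 ± 0.46 on the log2 scale, a 6.20-fold difference (limma adjusted p = 0.000667), and CD8 cells were below CD4 cells by 25.8-fold (log2 difference -4.69 ± 0.46, limma adjusted p = 1.37e-07). These were the only calls in the 7 genes, against 3.89% of all genes called between Treg and CD4 cells and 3.32% between CD8 and CD4 cells. Erythroid markers summed to 29059 to 33121 in CD8 and 490 to 1161 in CD4 cells at day 0 (median change 5.28, 1 of 6 called and 6 of 6 at an unadjusted p under 0.05), and B cell markers to 1596 to 2393 and 387 to 533 (1 of 5 called higher). In Treg at day 0 myeloid markers summed to 5079 to 5519, against 2751 to 3968 in CD4 cells. B cell markers there summed to 862 to 923 (1 of 5 higher than in CD4 cells without CD4 syngeneic JL019-2 in the fit). Dendritic markers summed to 218 to 352 in Treg and 158 to 170 in CD4 cells. Sums were lower in Treg for NK cell markers (249 to 327 against 392 to 425) and erythroid markers (117 to 451). Their part in the receptor values was not tested. Il2rb was at 17656 and 19440.1 in Treg and 7713 and 6581 in CD4 cells (log2 difference 1.38 ± 0.51, limma adjusted p = 0.152), which became a call when the CD4 syngeneic library JL019-2 was left out of the fit (2 called against 5.90% of all genes, limma adjusted p = 0.0329). Il7r was at 5266 and 3243 in Treg against 8523 and 8355 in CD4 cells, a log2 difference of -1.03 ± 0.51 that did not pass (limma adjusted p = 0.348). In these bulk libraries fewer cells with a transcript and less transcript per cell cannot be told apart.

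After allogeneic transplantation, CD8 cells carried Il2ra at the level of their CD4 counterparts. Il2ra in CD8 allogeneic libraries was 4878, 6269.6, 7084 and 7397, all far above the syngeneic libraries at 258, 303 and 262 and the day 0 libraries. The difference from day 0 was 6.39 ± 0.40 on the log2 scale, or 83.6-fold (limma adjusted p = 1.76e-12), and that from syngeneic recipients 4.53 ± 0.35, or 23.1-fold (limma adjusted p = 1.76e-10). In CD4 cells Il2ra was 5079, 5462, 5783 and 5686 after allogeneic and 2002, 411 and 2288 after syngeneic transplantation, a log2 difference of 2.15 ± 0.35 (limma adjusted p = 7.65e-05, and 0.0511 in a fit of the compared groups alone). Leaving out the lowest of these libraries, JL019-2, took the CD4 difference to 1.36 ± 0.23 (limma adjusted p = 0.000127), over 1.5-fold smaller on the linear scale; against day 0 it was 1.49 ± 0.40 (limma adjusted p = 0.00642), a call lost without either day 0 library (0.0559 and 0.0662). The allogeneic changes of the 2 lineages from their syngeneic controls differed by 2.38 ± 0.50, larger in CD8 cells (limma adjusted p = 0.00401), and by 3.17 ± 0.31 without CD4 syngeneic JL019-2. This comparison, like those of the other genes below, shares the allogeneic libraries with the comparisons to day 0.

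The beta chain followed another order. Il2rb in CD4 cells was 50653, 44625, 29705 and 33261 in allogeneic and 11699, 2580.4 and 9766 in syngeneic recipients, with no overlap (log2 difference 2.54 ± 0.39, 5.81-fold, limma adjusted p = 3.23e-05; without CD4 syngeneic JL019-2 1.85 ± 0.34). In CD8 cells the libraries overlapped, at 42957, 49325, 20668 and 48634 in allogeneic and 36746, 40004 and 25569 in syngeneic recipients (log2 difference 0.19 ± 0.39, 95% interval -0.61 to 0.99, limma adjusted p = 0.784). Both CD8 groups were above the day 0 libraries at 11242 and 11744, the allogeneic by 3.32-fold (limma adjusted p = 0.00362) and the syngeneic by 2.91-fold (limma adjusted p = 0.0185). Quantile normalisation lost both calls (adjusted p = 0.0585 and 0.231), and the syngeneic one was lost without either day 0 library or the syngeneic library JL019-1 (0.0530 to 0.142). CD4 allogeneic cells were above CD4 day 0 cells by 5.43-fold (limma adjusted p = 0.000122), while CD4 syngeneic cells differed from day 0 by -0.10 ± 0.46 (limma adjusted p = 0.914), and by 0.59 ± 0.39 without CD4 syngeneic JL019-2 (limma adjusted p = 0.478). The allogeneic change from syngeneic was smaller in CD8 than in CD4 cells, with a difference of -2.35 ± 0.55 on the log2 scale (limma adjusted p = 0.0102) and of -1.66 ± 0.45 without CD4 syngeneic JL019-2 (limma adjusted p = 0.0321). This call was lost under quantile normalisation (adjusted p = 0.0710) and in a fit of the compared groups alone (0.0591). The JL027-1 CD8 allogeneic library, at 20668, was the lowest of its group.

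Il15ra, the interleukin 15 alpha chain, was higher after transplantation in both allogeneic groups. In CD4 cells it was 581, 629, 505 and 493 after allogeneic transplantation against 228 and 263 at day 0 (log2 difference 1.16 ± 0.24, limma adjusted p = 0.000546), and in CD8 cells 722, 546, 581 and 503 against 327 and 259 (1.00 ± 0.24, limma adjusted p = 0.00213). CD8 syngeneic cells were higher still, at 893, 826 and 1069, so that allogeneic was below syngeneic (log2 difference -0.66 ± 0.21, limma adjusted p = 0.0239). That last call was lost without the allogeneic library JL019-2 or JL027-2 or the syngeneic library JL019-1 or JL027 (log2 differences of -0.56 to -0.69, adjusted p from 0.0553 to 0.128) and in a fit of the compared groups alone (0.0578). In CD4 cells the difference between allogeneic and syngeneic was 0.44 ± 0.21 (limma adjusted p = 0.185), and the lineages differed, CD8 minus CD4, by -1.10 ± 0.30 (limma adjusted p = 0.0284), a call lost without any 1 of 6 libraries (CD8 allogeneic JL019-2 or JL027-2, CD4 allogeneic JL019-1 or JL019-2, CD8 syngeneic JL019-1 or JL027; adjusted p from 0.0531 to 0.0854) and under quantile normalisation (0.0574).

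Il2rg, the shared signalling chain, had the narrowest span of group means but differed between CD8 allogeneic and syngeneic cells. It was 49526, 50934, 62309 and 56918 in CD4 allogeneic and 45467 and 40166 in CD4 day 0 libraries (0.36 ± 0.27, limma adjusted p = 0.391). The CD4 allogeneic difference from syngeneic cells was 0.63 ± 0.24 (limma adjusted p = 0.076), and 0.18 ± 0.19 without CD4 syngeneic JL019-2. CD8 allogeneic libraries, at 32285, 34472, 44645 and 30626, overlapped with the day 0 libraries at 32281 and 36740.1 and lay below the syngeneic ones at 54823, 48132 and 69883 (-0.70 ± 0.24, limma adjusted p = 0.0346). That call was lost under median centring (adjusted p = 0.0624), quantile normalisation (0.141) and removal of the length trend (0.0758), and without the allogeneic library JL019-1, JL019-2 or JL027-2 or the syngeneic library JL019-1 or JL027 (0.0656 to 0.189). Between lineages the allogeneic changes of Il2rg differed, CD8 minus CD4, by -1.32 ± 0.33 (limma adjusted p = 0.0178), not called without the CD4 syngeneic JL019-2 (-0.87 ± 0.26, limma adjusted p = 0.0511) or the CD8 syngeneic JL027 (adjusted p = 0.0630), under quantile normalisation (0.0542) or in a fit of the compared groups alone (0.101).

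Il7r, the interleukin 7 receptor, separated CD4 allogeneic from syngeneic cells. Its values were 13524, 12103, 10545 and 8734 in allogeneic and 2489.9, 1402 and 4538 in syngeneic recipients (2.14 ± 0.39, 4.41-fold, limma adjusted p = 0.000281), and the allogeneic libraries were close to day 0 (0.39 ± 0.44, limma adjusted p = 0.601). Without CD4 syngeneic JL019-2 the difference was 1.72 ± 0.41 (limma adjusted p = 0.00492). In CD8 cells both groups after transplantation were below the day 0 libraries at 10108 and 12484. CD8 syngeneic libraries were at 3358, 3758 and 5957 (-1.41 ± 0.47, limma adjusted p = 0.0292) and CD8 allogeneic libraries at 6712, 5576, 5581 and 3573 (-1.10 ± 0.44, limma adjusted p = 0.059). The CD8 syngeneic call was lost without either day 0 library or the syngeneic library JL019-1 or JL019-2 (adjusted p from 0.0549 to 0.126) and under median centring (0.0731). The CD8 allogeneic difference missed the threshold and passed it with the recipient as a block (adjusted p = 0.0489) and without CD4 syngeneic JL019-2 (limma adjusted p = 0.0379). Between lineages the allogeneic changes, CD8 minus CD4, were apart by -1.83 ± 0.55, which missed the threshold (limma adjusted p = 0.0532). This interaction passed with the recipient as a block (adjusted p = 0.0203) and was not called without CD4 syngeneic JL019-2.

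The neighbouring genes Il4ra and Il21r moved together. Across the 31 libraries their log2 values had a Pearson correlation of 0.93, the highest of the 21 pairs among the 7 genes; the points share library depth, the length trend described below and the low CD4 syngeneic library JL019-2, and no test was made. In CD8 cells Il4ra was 1819, 1609, 689 and 1467 in allogeneic and 5303, 6383 and 2473 in syngeneic recipients (-1.74 ± 0.58, limma adjusted p = 0.0312), and Il21r was 2973, 3622, 2053 and 3872 and 8706, 8633 and 6735 (-1.39 ± 0.34, limma adjusted p = 0.004). The lowest CD8 allogeneic library was JL027-1 for both genes. Both were also lower than at day 0, Il4ra by 3.57-fold (limma adjusted p = 0.0341) and Il21r by 2.20-fold (limma adjusted p = 0.0276). Without library JL027-1 neither call against day 0 held (adjusted p = 0.0902 for Il4ra and 0.0760 for Il21r), nor did that of Il4ra against syngeneic cells (0.0987), which was also lost without the syngeneic library JL019-1 (0.107) or JL019-2 (0.115). Leaving out either day 0 library lost both calls against day 0 (0.0894 to 0.154). B cell markers moved with the CD8 day 0 comparisons: 4 of 5 were lower in CD8 allogeneic (median -4.69) and in CD8 syngeneic cells (median -4.22) than at day 0. The 5 together summed to 1596 to 2393 at day 0, 691 to 977 in allogeneic and 961 to 1842 in syngeneic libraries. Erythroid markers summed to 29059 to 33121 at day 0, against 547 to 14749 and 3138 to 10829.9, with 1 of 6 called lower in each. In CD8 allogeneic cells against day 0, 3 of 8 myeloid markers were higher and 2 lower (5 and 3 without CD4 syngeneic JL019-2 in the fit), and 2 of 5 dendritic markers were higher and 1 lower, their sum going from 208 to 346 up to 1169 to 2713. NK cell markers summed to 502 to 505 at day 0, 2391 to 4028 in syngeneic and 860 to 1465 in allogeneic CD8 libraries. In CD8 syngeneic cells 1 of 3 was higher and 1 lower than at day 0, and in CD8 allogeneic cells 1 was lower (2 higher and 1 lower in both without CD4 syngeneic JL019-2 in the fit). Their part in the receptor values was not tested. In CD4 cells Il21r was lower after allogeneic transplantation than at day 0 (-1.11 ± 0.39, limma adjusted p = 0.0387), a call lost without either day 0 library (0.239 and 0.128) or the allogeneic library JL019-1, JL019-2 or JL027-1 (0.0590 to 0.0829). Against syngeneic cells Il21r differed by -0.28 ± 0.34, and by -0.98 ± 0.27 without CD4 syngeneic JL019-2 (limma adjusted p = 0.0142), where Il21r was 1854 against 6782 and 9147.

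**Figure D2:**
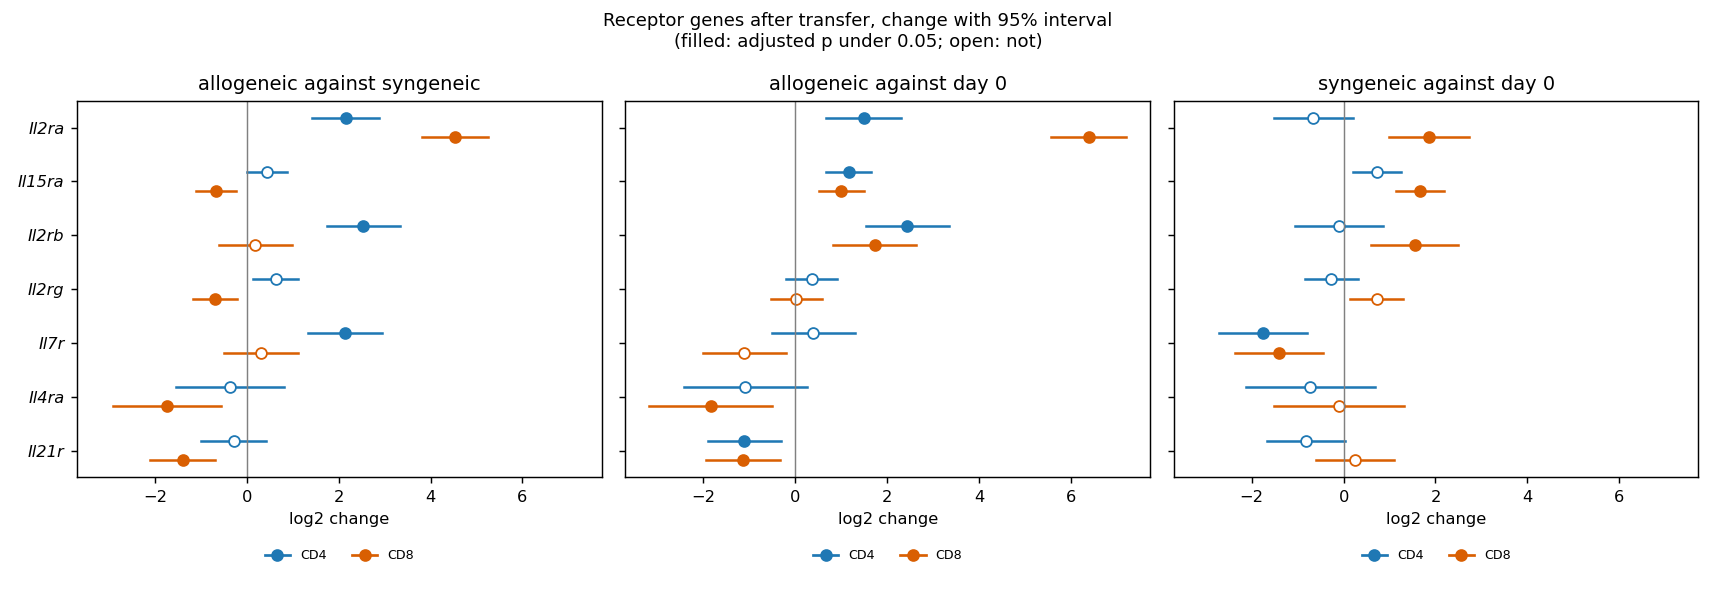
Log2 changes (horizontal axes) of the 7 receptor genes (vertical axis) with 95% intervals in CD4 (blue) and CD8 cells (orange); filled points passed an adjusted p of 0.05. The Il2ra change from syngeneic is 4.53 in CD8 and 2.15 in CD4 cells, while Il2rb is 2.54 in CD4 and 0.19 in CD8 cells.

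Counted over the family, 5 of 7 genes were called between CD8 allogeneic and syngeneic cells (1 higher, 4 lower; 21.1% of all genes) and 3 of 7 in CD4 cells (all higher; 14.6%). Against day 0, 5 of 7 were called in CD8 allogeneic cells (3 higher, 2 lower; 30.4%) and 4 of 7 in CD4 allogeneic cells (3 higher, 1 lower; 24.0%). In syngeneic recipients 4 of 7 were called in CD8 cells (3 higher, 1 lower; 24.2%) and 1 of 7 in CD4 cells (Il7r, lower; 13.0%). The single CD4 syngeneic call had a log2 difference of -1.75 ± 0.47 (limma adjusted p = 0.0117) and was lost without CD4 syngeneic JL019-2 (-1.33 ± 0.47, limma adjusted p = 0.0916), without either day 0 library (0.0955 and 0.0936) and in a fit of the compared groups alone (0.225). For the difference between the 2 lineages in the allogeneic change, 4 of 7 were called (1 higher, 3 lower; 4.65% of all genes) and 3 of 7 without CD4 syngeneic JL019-2 (3.97%). Without that library the count was 4 of 7 for CD4 allogeneic against syngeneic cells (Il21r added; 10.9% of all genes), 6 of 7 for CD8 allogeneic cells against day 0 (Il7r added; 34.1%) and 5 of 7 for CD8 syngeneic cells against day 0 (29.4%). The gene added to the last was Il2rg, at 0.72 ± 0.28 (limma adjusted p = 0.059 with that library, limma adjusted p = 0.00974 without it). In CD4 syngeneic cells, 7 of 8 myeloid markers and 4 of 6 erythroid markers were also called higher than at day 0. Without JL019-2, 5 of 8 myeloid markers were, and the erythroid markers missed the threshold (adjusted p from 0.177 to 0.363). In CD4 allogeneic against syngeneic cells 6 of 8 myeloid and 2 of 6 erythroid markers were lower, and 3 and 1 without JL019-2. In CD4 allogeneic cells against day 0, 3 of 8 myeloid markers were higher (5 without JL019-2 in the fit) and 3 of 5 B cell markers lower. In CD8 allogeneic against syngeneic cells 2 of 8 myeloid markers were higher and 2 lower. Without JL019-2 in the fit, 2 of 3 NK cell and 1 of 6 erythroid markers were lower there. Of 5 dendritic markers 1 was higher and 2 were lower, and of 6 T lineage markers 2 were higher and 2 lower. Their part in the receptor values was not tested.

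Treg taken back from recipients had more of 5 receptor chains than the CD4 cells of Treg-treated recipients and more of 5 than the CD8 cells. Il2ra was 24209, 21787 and 19300.4 in these Treg, 3356, 3556, 5486 and 3026 in CD4 and 5690.1, 3840.1, 7342 and 4784 in CD8 cells, with differences of 2.53 ± 0.35 (limma adjusted p = 9.69e-06) and 2.04 ± 0.35 (limma adjusted p = 5.84e-05). Il7r was 25490.0, 26048 and 17530.3 in Treg, 9231, 9305, 4714 and 5981 in CD4 and 3666, 5807, 1436 and 1712 in CD8 cells, so Treg exceeded the CD4 cells by 3.23-fold (limma adjusted p = 0.00225) and the CD8 cells by 8.42-fold (limma adjusted p = 8.4e-07). No library of Treg overlapped with the CD4 or CD8 libraries for either gene. Foxp3 was at 285, 265 and 293 in these Treg and at 172, 127, 147 and 178 in the CD4 cells. Most CD8 libraries of allogeneic recipients without Treg, listed below, had more Foxp3 than any of these Treg libraries. NK cell markers were lower in Treg, 2 of 3 against CD4 and 3 of 3 against CD8 cells, with sums of 50.6 to 90.0 in Treg, 155 to 338 in CD4 and 630 to 2614 in CD8 libraries. Of 8 myeloid markers 1 was higher and 2 lower against CD4 cells and 3 were lower against CD8 cells, and of 5 dendritic markers 1 was higher and 2 lower against each. Their part in the receptor values was not tested.

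Il4ra (6881, 5129.7 and 5209) and Il21r (7492, 5629 and 6857) were also above both conventional populations. Il4ra was higher by 2.25 ± 0.58 than in CD4 (limma adjusted p = 0.00504) and by 2.77 ± 0.58 than in CD8 cells (limma adjusted p = 0.000508). Il21r was higher by 1.14 ± 0.34 (limma adjusted p = 0.0149) and 1.27 ± 0.34 (limma adjusted p = 0.00521). Il2rb was 40811, 31546 and 40817 in Treg against 19968, 17389.7, 20953 and 15599.6 in CD4 cells (1.03 ± 0.39, limma adjusted p = 0.0461), and it overlapped with CD8 cells (0.34 ± 0.39, limma adjusted p = 0.507). The Il2rb call against CD4 cells was lost under median centring (adjusted p = 0.0759), the length trend (0.0596) and the label prefix as a block (0.0538). Leaving out any single library but the CD4 library JL027-1 lost it (adjusted p from 0.0626 to 0.126), and without the Treg library JL019-1 the Il21r call against CD4 cells was lost too (0.0649). Il2rg was above CD8 cells (0.92 ± 0.24, limma adjusted p = 0.00357) and overlapped with CD4 cells (0.12 ± 0.24, limma adjusted p = 0.717), where quantile normalisation called it higher (0.66, adjusted p = 0.0394). Il15ra overlapped with both. The 5 of 7 called higher against CD4 cells stand beside 30.0% of all genes called in either direction, and the 5 of 7 against CD8 cells beside 36.2%; these 2 comparisons share the Treg libraries.

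Treg recovered after transplantation had more Il7r and Il2rg than Treg at day 0. Il7r went from 5266 and 3243 to 25490.0, 26048 and 17530.3, 5.48-fold (2.45 ± 0.47, limma adjusted p = 0.000442), and Il2rg from 36724 and 36553 to 78454, 88368 and 70397, 2.15-fold (limma adjusted p = 0.00758). The Il2rg call was lost without either day 0 library (0.0711 and 0.0646) and under quantile normalisation (0.0939). Il2ra (11229 and 13064 at day 0) and Il2rb (17656 and 19440.1) were higher afterwards without overlap, by 0.84 ± 0.42 (limma adjusted p = 0.22) and 1.02 ± 0.46 (limma adjusted p = 0.169), and did not pass. Without CD4 syngeneic JL019-2 in the fit Il2ra passed (limma adjusted p = 0.0157) and 3 genes were called, against 16.3% of all genes in that fit. Of the 7 genes 2 were called, against 13.3% of all genes. NK cell markers were lower in value (1 of 3 called, 3 of 3 without CD4 syngeneic JL019-2 in the fit). Erythroid markers, 3 of 6 called higher, summed to 1644 to 50088 in these Treg and to 117 to 451 at day 0; their part in the receptor values was not tested.

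**Figure D3:**
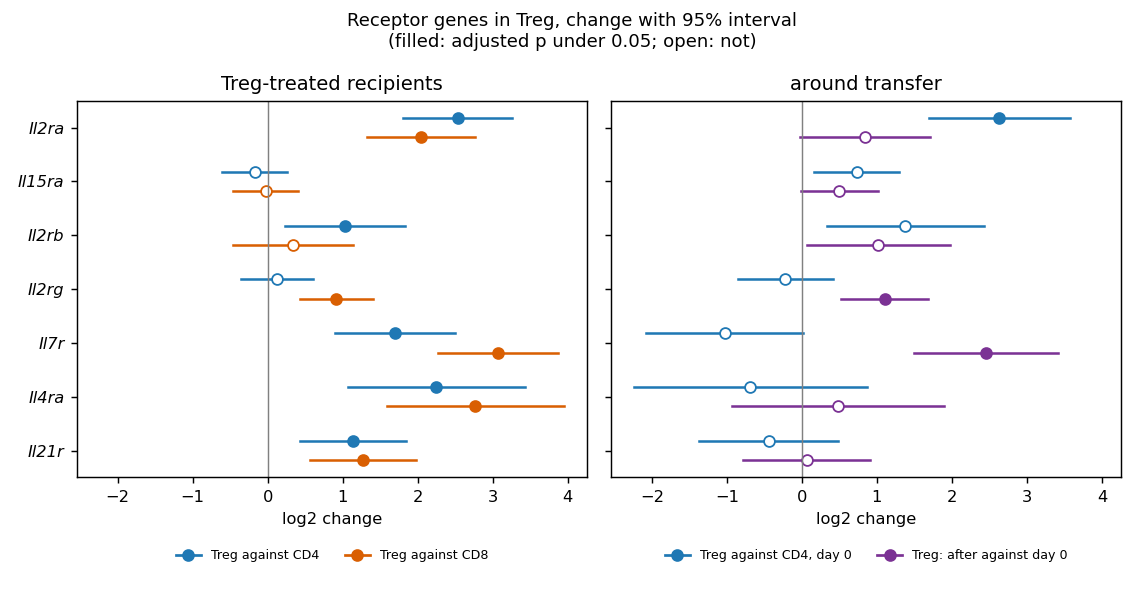
Log2 changes (horizontal axes) of the receptor genes (vertical axis) with 95% intervals, for Treg against CD4 and CD8 cells of Treg-treated recipients (left) and for Treg against CD4 cells at day 0 and Treg after transplantation against day 0 (right). Filled points passed an adjusted p of 0.05; Il7r is at 1.69 and 3.07 on the left and at -1.03 and 2.45 on the right.

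Treatment with Treg was followed by lower Il2rb in CD4 cells and by no called receptor gene in CD8 cells. Il2rb was 19968, 17389.7, 20953 and 15599.6 in CD4 cells of Treg-treated recipients against 50653, 44625, 29705 and 33261 without Treg, with no overlap (-1.07 ± 0.36, 2.11-fold lower, limma adjusted p = 0.0344). It was lower in both label prefixes, with log2 differences of -1.35 in JL019 and -0.80 in JL027. The call was lost without any single library of either group other than the 2 labelled JL027-1 (adjusted p from 0.0518 to 0.101), and stood without CD4 syngeneic JL019-2 in the fit (limma adjusted p = 0.00813). In CD8 cells Il2rb overlapped, at 43609.6, 14463, 40029 and 30319.8 against 42957, 49325, 20668 and 48634 (-0.37 ± 0.36, 95% interval -1.11 to 0.37, limma adjusted p = 0.677). The difference of the Treg effects between CD8 and CD4 cells was 0.71 ± 0.51 (limma adjusted p = 0.898), so the data do not show that they differ.

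Il4ra in CD4 cells of Treg-treated recipients was 1008, 979 and 765 in JL019-1, JL019-2 and JL027-2 and 2731 in JL027-1, against 4091, 3401, 2098 and 3105 without Treg. The log2 difference of -1.36 ± 0.53 missed the threshold (limma adjusted p = 0.0647) and passed without JL027-1 (-1.76, adjusted p = 0.0157) or without the CD4 syngeneic library JL019-2 (limma adjusted p = 0.0148). The same 3 libraries had the most negative trend of expression with gene length in their group. It was -0.10, -0.12 and -0.07 log2 units per doubling of gene length, against 0.02 in JL027-1. Gene length is here the genomic span with introns, not the transcript length. They also had lower Cd4, at 9108, 8722 and 9370 against 17587. The part of the length trend in the Il4ra values was not tested beyond removing it from all libraries, after which Il4ra differed by -1.30 (adjusted p = 0.0729). Il2ra was 3356, 3556, 5486 and 3026 with and 5079, 5462, 5783 and 5686 without Treg (-0.55 ± 0.33, limma adjusted p = 0.225), and passed only without CD4 syngeneic JL019-2 in the fit (limma adjusted p = 0.0294) or with array weights (0.000608). Il7r in CD8 cells was 3666, 5807, 1436 and 1712 with and 6712, 5576, 5581 and 3573 without Treg (-0.96 ± 0.36, limma adjusted p = 0.344), with the lowest values in the JL027 libraries. Erythroid markers were also higher in value in these CD4 cells, with a median change of 3.04 (0 of 6 called by limma, 5 of 6 at an unadjusted p under 0.05; 2 called without CD4 syngeneic JL019-2 in the fit). Myeloid markers summed to 8622 to 25122 with and 5450.4 to 7794 without Treg (1 of 8 called, lower; 3 higher and 1 lower without CD4 syngeneic JL019-2 in the fit), and T lineage markers to 30424 to 35892 and 37741 to 43278. Neither pair of sums overlapped, and the part of these markers in the receptor values was not tested. Of the 7 genes, 1 was called in CD4 cells (22.2% of all genes; 3 without CD4 syngeneic JL019-2 in the fit, where 28.6% of all genes were) and 0 in CD8 cells (0.0657% of all genes), where 1 of 7 had an unadjusted p under 0.05. For the difference of the Treg effects 0 of 7 were called (0.00597% of all genes; 0 at an unadjusted p under 0.05).

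**Figure D4:**
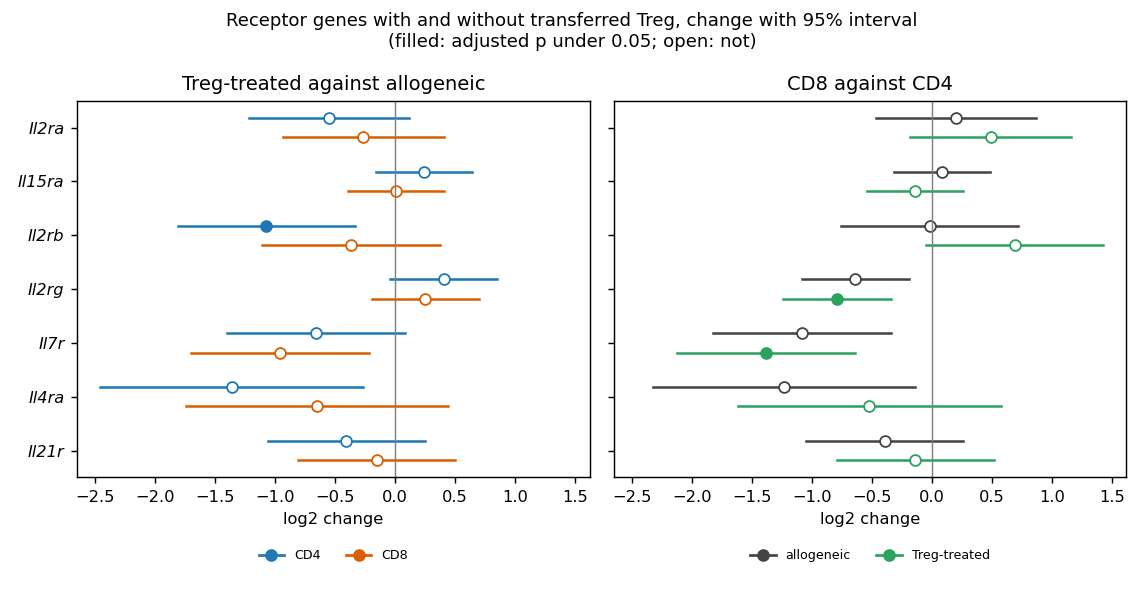
Log2 changes (horizontal axes) of the receptor genes (vertical axis) with 95% intervals, for Treg-treated against allogeneic recipients in CD4 and CD8 cells (left) and for CD8 against CD4 cells in allogeneic and in Treg-treated recipients (right). On the left only Il2rb in CD4 cells, at -1.07, is filled (adjusted p under 0.05); on the right Il2rg and Il7r in Treg-treated recipients are, at -0.79 and -1.38.

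In allogeneic and Treg-treated recipients the values of the common chain and of the interleukin 7 receptor were lower in CD8 than in CD4 cells. In all 4 allogeneic recipients Il2rg and Il7r were lower in CD8 cells, with log2 differences of -0.48 to -0.89 for Il2rg and -0.92 to -1.29 for Il7r. In all 4 Treg-treated recipients both were lower again, with differences of -0.71 to -0.91 for Il2rg and -0.68 to -1.80 for Il7r. In all 3 syngeneic recipients both were higher in CD8 cells, by 0.11 to 1.34 for Il2rg and 0.39 to 1.42 for Il7r, where 1 of the CD4 libraries is JL019-2; no test of this was made. In Treg-treated recipients both were called (-0.79 ± 0.22, limma adjusted p = 0.0185; -1.38 ± 0.36, limma adjusted p = 0.0126), 2 of 7 against 9.61% of all genes. In allogeneic recipients none was (-0.64 ± 0.22, limma adjusted p = 0.0845; -1.08 ± 0.36, limma adjusted p = 0.0755), against 6.15% of all genes; 3 of 7 had an unadjusted p under 0.05. With the recipient as a block both were called in allogeneic recipients as well (adjusted p = 0.0404 and 0.0322), and so they were without CD4 syngeneic JL019-2 in the fit (limma adjusted p = 0.00854 and limma adjusted p = 0.0415; 8.29% of all genes). The calls in Treg-treated recipients were lost without the CD8 library JL027-1 (0.0834 and 0.0782) and without the CD4 libraries JL019-1 (0.0525 and 0.0537) or JL019-2 (0.0672 and 0.0533). Without the CD8 library JL027-2 only Il7r was lost (0.0683), and a fit of the compared groups alone called neither (0.0805 and 0.127). In Treg-treated recipients 1 of 5 B cell markers was higher and 2 were lower in CD8 than in CD4 cells, and 1 of 3 NK and 1 of 5 dendritic markers were higher. In allogeneic recipients 1 of 5 B cell markers was higher and 1 lower, and 2 of 3 NK and 1 of 5 dendritic markers were higher. NK marker sums were 630 to 2614 in CD8 and 155 to 338 in CD4 cells of Treg-treated recipients, and 860 to 1465 and 202 to 257 in allogeneic ones; their part in the receptor values was not tested. Il2ra and Il2rb did not differ between the lineages in allogeneic recipients beyond their spread (0.20 ± 0.33, 95% interval -0.46 to 0.87, and -0.02 ± 0.36, -0.76 to 0.72).

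Ratios within a library show the balance of 2 chains free of scaling between libraries. The log2 ratio of Il2rb to Il7r was -0.24 ± 0.14 in CD4 and 0.03 ± 0.17 in CD8 cells at day 0, and 1.80 ± 0.21 and 2.87 ± 0.79 after allogeneic transplantation. In Treg it went the other way, from 2.16 ± 0.59 at day 0 to 0.72 ± 0.47 afterwards, with no test made. The log2 ratio of Il2ra to Il2rb was -0.61 ± 0.06 in Treg at day 0 and -0.79 ± 0.28 afterwards. In CD8 cells it was -7.25 ± 0.24 at day 0, -6.93 ± 0.29 in syngeneic and -2.59 ± 0.72 in allogeneic recipients, near the -2.81 ± 0.44 of CD4 allogeneic cells. Treatment with Treg changed neither ratio beyond the spread. For Il2rb to Il7r the difference was -0.42 in CD4 cells (exact permutation test, two-sided p = 0.229) and 0.59 in CD8 cells (exact p = 0.514). For Il2ra to Il2rb it was 0.52 (exact p = 0.143) and 0.10 (exact p = 0.771). Over these 4 tests the adjusted exact p-values were 0.457, 0.686, 0.457 and 0.771. With 4 libraries a group the smallest possible is 0.0286 before adjustment, so a single ratio that separated fully could not pass on its own afterwards.

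**Figure D5:**
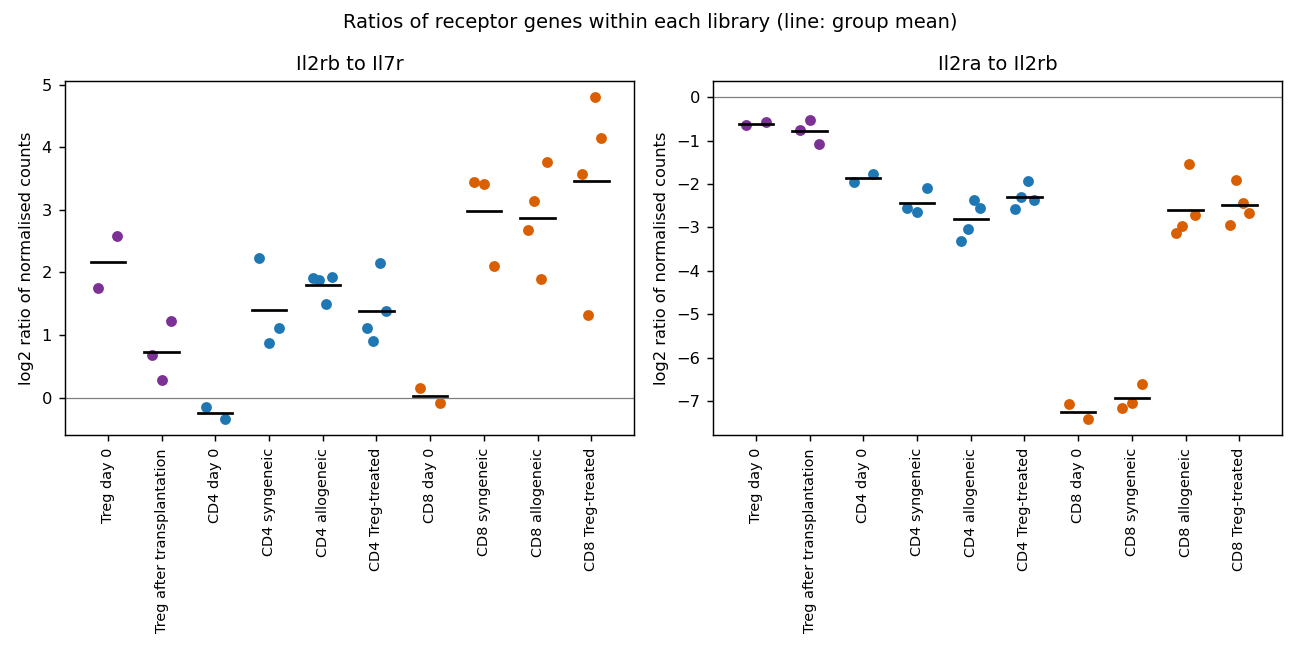
Log2 ratios of Il2rb to Il7r (left) and of Il2ra to Il2rb (right) within each library (points, vertical axes) by group (horizontal axes), with lines for group means. The Il2ra to Il2rb ratio of CD8 cells lies near -7 at day 0 and in syngeneic recipients and between -3.14 and -1.54 in allogeneic ones.

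The other genes of the pathway were followed as lists, with the share of all genes called in each comparison as given above. The ligand list had 6 of its 8 genes in the table; Il9 and Tslp were not. In CD4 cells 4 of 6 were higher after allogeneic transplantation than at day 0, among them Il13 (5.39 ± 0.67, limma adjusted p = 4.94e-07) and Il21 (3.89 ± 0.68, limma adjusted p = 8.5e-05), the cytokine of helper cells that binds Il21r. With Treg treatment 3 of 6 were higher in CD4 cells. Il4 went from a mean of 275 ± 70.1 to 1536 ± 487 (2.44 ± 0.42, limma adjusted p = 0.00241) and Il2, the ligand of the Il2ra, Il2rb and Il2rg complex, from 107 ± 61.6 to 593 ± 227 (2.54 ± 0.53, limma adjusted p = 0.00734). In CD8 cells none of 6 was called, with 1 at an unadjusted p under 0.05. Treg after transplantation had little of either interleukin 2 or interleukin 21: Il2 was at 5.51 ± 3.48 (-6.53 ± 0.57 from CD4 cells, limma adjusted p = 4.9e-09) and Il21 at 14.9 ± 4.26 (-6.61 ± 0.60, limma adjusted p = 9.77e-09).

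Calls among the kinases and STAT factors depended on the library that stands apart. Of Jak1, Jak3, Stat3, Stat5a, Stat5b and Stat6, at least 1 was called in 3 of the 15 comparisons between groups, and 1 in each of those. Stat6, which carries the interleukin 4 signal, was lower in CD4 cells of Treg-treated than of allogeneic recipients (-1.57 ± 0.46, limma adjusted p = 0.0213), and the list's median change there was -0.94 against -0.00 over all genes. Jak1 was lower in CD8 allogeneic than syngeneic cells (-0.85 ± 0.19, limma adjusted p = 0.00191), and Stat3 was higher in Treg than in CD4 cells of Treg-treated recipients (0.97 ± 0.37, limma adjusted p = 0.0499). Without CD4 syngeneic JL019-2 in the fit, Jak3, Stat3, Stat5b and Stat6 were all called in 2 of these comparisons. These 4 of 6 were higher in Treg than in CD4 cells of Treg-treated recipients. The same 4 were lower in CD4 cells of Treg-treated than of allogeneic recipients. In CD8 allogeneic against syngeneic cells 2 of 6 were called in that fit, 1 higher and 1 lower. Of all 16741 genes, 5858, 4787 and 4189 were called there in these 3 comparisons, in the order given. The first 2 comparisons share the CD4 Treg-treated libraries.

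Of 13 feedback and target genes of this signalling, 7 were lower and none higher in CD8 allogeneic than syngeneic cells, with a median change of -1.24 against 0.02 over all genes. They included Ccnd2, a cyclin of the start of the cell cycle (-2.93 ± 0.28, limma adjusted p = 7.64e-09), and Bcl2, a survival factor (-2.42 ± 0.24, limma adjusted p = 1.61e-08). CD8 syngeneic cells had 9 of 13 higher than at day 0 and none lower, led by the feedback inhibitors Cish (4.22 ± 0.43, limma adjusted p = 1.74e-07) and Socs2 (2.61 ± 0.30, limma adjusted p = 1.02e-06). In CD4 cells 3 were higher and 4 lower in allogeneic than syngeneic recipients, among them the kinase Pim2 (1.75 ± 0.25, limma adjusted p = 1.33e-05) and Ccnd2 (-1.71 ± 0.28, limma adjusted p = 7.89e-05). There 1 was higher and 5 were lower without CD4 syngeneic JL019-2. Treg after transplantation had 4 of 13 higher and 2 lower than CD4 cells, and 7 higher and 2 lower than CD8 cells of Treg-treated recipients. Socs2 led both lists, at 5672 ± 527 in Treg, 733 ± 207 in CD4 and 375 ± 127 in CD8 cells (2.99 ± 0.25, limma adjusted p = 2.24e-09 and 3.96 ± 0.25, limma adjusted p = 3.62e-12). With Treg treatment 2 of 13 were higher in CD4 cells, Ccnd2 (1.29 ± 0.26, limma adjusted p = 0.00614) and Socs1 (1.10 ± 0.27, limma adjusted p = 0.0123), and none was called in CD8 cells, where 3 had an unadjusted p under 0.05.

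Of 10 transcription factors known from the control of these receptor genes, 2 were higher and 2 lower in CD8 allogeneic than syngeneic cells. Eomes, a T-box factor tied to Il2rb, was lower (-2.17 ± 0.26, limma adjusted p = 4.78e-07), while Il2rb was not called there. Foxp3 was higher, at 334, 453, 103 and 335 in CD8 allogeneic libraries against 0, 3.52 and 0 in syngeneic ones (7.35 ± 0.65, limma adjusted p = 2.05e-09); the Cd4 level of those CD8 allogeneic libraries was 23.9 to 59.6. In CD4 cells 3 of 10 were higher and none lower in allogeneic than syngeneic recipients, led by Tbx21, the other T-box factor (2.61 ± 0.39, limma adjusted p = 2.66e-05), and Gfi1 (1.20 ± 0.31, limma adjusted p = 0.0083). Without CD4 syngeneic JL019-2, 2 were higher and 1 was lower, and the list's median change went from 0.63 to 0.08. In Treg after transplantation against day 0, Tbx21 (2.81 ± 0.47, limma adjusted p = 9.47e-05) and Eomes (1.86 ± 0.31, limma adjusted p = 0.00011) led 3 that were higher, and 1 was lower (2 without CD4 syngeneic JL019-2 in the fit). Foxo1, a known activator of Il7r, was not called between these Treg groups (-0.92 ± 0.47, limma adjusted p = 0.228; lower without CD4 syngeneic JL019-2 in the fit, limma adjusted p = 0.0435).

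The other chains that pair with family members or with Il2rg were Il9r, Crlf2 and Il13ra1. All 3 were higher in Treg after transplantation than in CD8 cells of Treg-treated recipients, Il9r by 4.30 ± 0.56 (limma adjusted p = 1.2e-06) and Crlf2 by 1.00 ± 0.22 (limma adjusted p = 0.00101). Crlf2, which joins with the interleukin 7 receptor chain to bind TSLP, was the 1 of 3 that was higher in Treg after transplantation than at day 0 (1.09 ± 0.27, limma adjusted p = 0.00538); Il9r was called too without CD4 syngeneic JL019-2 in the fit (limma adjusted p = 0.0467).

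Genes with the pattern most like a receptor over the 31 libraries were found by Pearson correlation of log2 values, given as a description since libraries of a group share depth and cell type. For Il2ra they were Slamf1 (r = 0.96), Mdfic (0.95) and Ccr8 (0.94), for Il2rb Zcchc18 (0.92), Adora2a (0.92) and Coro2a (0.90), and for Il7r Tsc22d3 (0.86), Ccr9 (0.77) and Gpr183 (0.75). Over the 10 group means the correlations of the 9 genes ranged from 0.74 to 0.98.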

How the data were processed

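Bulk RNA of sorted T cells was measured in 31 libraries. The authors deposited 1 table of normalised counts (a signal that is not whole numbers, so reads per library were not recovered), and the submitters' processing notes name FastQC 0.11.7, kallisto, DESeq2 and the builds GRCm38 and mm10. The sum of the deposited normalised counts was 20540551 to 39928133 per library; the true depth is unknown. Columns were matched to samples by title, with 0 columns of no listed sample, and column means equalled the deposited means. The T cell receptor tables were not used here.

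Values were taken as log2(value + 1), so changes of low genes are understated, and fitted as 10 group means with limma 3.58.1 in R 4.3.3 (trended, robust) over all 16741 genes, which all had a mean of at least 1. Benjamini-Hochberg adjustment covered all genes within a comparison, and a call needs an adjusted p below 0.05. All 17 comparisons are printed, and the code was tested on simulated data. Exact permutation tests were used for ratios of 2 genes. The rule for named genes was all 7 receptor genes, with members of fixed lists and the 3 genes most correlated with each of Il2ra, Il2rb and Il7r; the members and lists were chosen with earlier results of these data known. Lists were counted without a set test. P-values measure only the spread between these libraries.

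CD4, CD8 and Treg libraries of 1 recipient share a title label. Such libraries, with day 0 libraries of 1 title prefix also taken as sharing a label, made 21 pairs. Deviations from group means correlated by -0.32 to 0.44 in these pairs (median 0.13), with 11 over 0.1. The medians of the other kinds of pairs were lower, at -0.02 to 0.03. The recipient was used as a block only in an alternative, so the main tests of CD8 against CD4 cells leave this pairing out. Other alternatives were other filters, pseudocounts and scalings, the title prefix as a block and array weights. Fits of the compared groups alone, leaving out each library and a correction for gene length were made too. Gene length, known for 15855 genes, was the genomic span with introns and not the transcript length. The fits without the CD4 syngeneic library JL019-2 in comparisons of other groups were added after the data were seen. Gene positions and promoter sequences are from RefSeq on GRCm38.p6.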

Additional observations from a re-analysis of the deposited data

Results flagged for a closer look

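Among 28 groups of 4 libraries (7 receptor genes in 4 groups) tested for a single distant library, 1 stood out; chance alone gives about 1 in 20. It was Il4ra in CD4 cells of Treg-treated recipients, at 2731 in JL027-1 against 765 to 1008 in the other 3 libraries, a gap of 0.876 of the whole range. The difference of this group from CD4 allogeneic cells passed the threshold without that library.

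Il2ra, Il2rb, Il2rg and Il15ra differed between CD8 and CD4 cells in their allogeneic change from syngeneic recipients, tested as an interaction. The log2 difference, CD8 minus CD4, was 2.38 for Il2ra, -2.35 for Il2rb, -1.32 for Il2rg and -1.10 for Il15ra. All of them rest on 3 CD4 syngeneic libraries, of which JL019-2 stands apart, and without it Il2ra, Il2rb and Il15ra were called.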

How the results depend on the processing

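No value for a receptor gene reversed past the threshold under any alternative. All 119 values kept their call with no filter, a filter at a mean of 10 and a pseudocount of 0.1, 115 with median centring (3 lost, 1 gained), 106 with quantile normalisation (7 lost, 6 gained), 114 with the length trend removed (2 lost, 3 gained), 93 with array weights (26 gained; the weights did not fully converge) and 99 with only the groups compared (7 lost, 13 gained). Median centring moved the median change over all genes by over 0.1 in 10 of 17 comparisons, for example between CD4 Treg-treated and allogeneic cells (from -0.00 to 0.20) and between Treg and CD4 cells of Treg-treated recipients (from 0.14 to -0.08). With the title prefix as a replicate block 116 kept their call (1 lost, 2 gained), and with the recipient as a replicate block 115 (4 gained), which moved 1 count of called receptor genes by over 1.5 times, that for CD8 against CD4 in allogeneic recipients (from 0 to 2).

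Other counts of called receptor genes that moved by over 1.5 times were these. The number called among all 16741 genes in the same setting follows in square brackets. Treg against CD4 at day 0 (1) had 3 with array weights [2622], 4 with only the groups compared [2081] and 2 without CD4 syngeneic JL019-2 [987]. Treg after transplantation against day 0 (2) had 1 with quantile normalisation [2640] and 4 with array weights [4310] or only the groups compared [3994]. CD4 syngeneic against day 0 (1) had 2 with array weights [4215] and 0 with only the groups compared [235], and CD4 allogeneic against syngeneic (3) had 6 with array weights [3824]. CD4 Treg-treated against allogeneic (1) had 2 with quantile normalisation [3900] or only the groups compared [4204], 5 with array weights [7960] and 3 without CD4 syngeneic JL019-2 [4787]. CD8 Treg-treated against allogeneic (0) had 1 [321], and the difference of the Treg effects (0) had 2 [3389], with array weights. CD8 against CD4 had 2 at day 0 (1) with only the groups compared [1802]. In allogeneic recipients (0) it had 2 with quantile normalisation [1033] or without CD4 syngeneic JL019-2 [1387], 1 with the length trend removed [1118] and 3 with array weights [3037] or only the groups compared [1802]. In Treg-treated recipients (2) it had 4 with array weights [6464] and 0 with only the groups compared [715]. The difference of the allogeneic changes (4) had 2 with quantile normalisation [654] or only the groups compared [494]. The cause was not tested.

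Leaving out 1 library of the groups compared gave counts of 1 to 2 for Treg after transplantation against day 0, 3 to 5 for Treg against CD4 in Treg-treated recipients, 2 to 4 for CD4 and 3 to 5 for CD8 allogeneic against day 0, 0 to 2 for CD4 and 2 to 4 for CD8 syngeneic against day 0, 2 to 4 for CD8 allogeneic against syngeneic, 0 to 2 for CD4 Treg-treated against allogeneic, 0 to 3 for CD8 against CD4 in Treg-treated recipients and 2 to 5 for the difference of the allogeneic changes. Over 875 such values 801 kept their call, 65 lost and 9 gained it; in day 0 groups the lone library is assumed to vary like the other groups. For the 4 ratio comparisons, leaving out a library leaves too few arrangements for the exact p to fall below 0.05. Those tests could not pass whatever the values, so only the size of the difference is informative. That of Il2ra to Il2rb in CD8 cells ranged from -0.09 to 0.45.

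Counts over all genes moved by over 1.5 times in 15 of 17 comparisons with array weights, always up, for example from 11 to 321 for CD8 and from 3710 to 7960 for CD4 Treg-treated against allogeneic, and in 12 with only the groups compared, for example from 2181 to 235 for CD4 syngeneic against day 0 and from 651 to 2081 for Treg against CD4 at day 0. With 2 to 4 libraries a group, small differences are not detectable, and true depth is unknown.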
